A study of Mus musculus with 10 samples.

Results

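Bone morphogenetic protein (BMP) signaling was followed through 10 genes known from pulmonary hypertension, Bmp4, Bmp5, Bmpr2, Acvrl1, Eng, Smad9, Smad6, Grem1, Id1 and Id3. These were the rows of the deposited table that carry these names, 10 of its 54532 genes, and each name was found once. The table holds bulk RNA-sequencing of 10 lungs of wild-type C57/BL6 mice at postnatal day 14 (P14), 5 IncPBF and 5 sham lungs. IncPBF mice, in which pulmonary blood flow is increased, received at P7 a fistula between the abdominal aorta and the inferior vena cava. Sham mice had the same operation without the puncture. Pups of either sex were used according to the methods, but neither sex nor litter nor operation date is in the labels. The labels do not say whether the lungs came from separate litters, so p values measure the spread between these lungs.

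BMP ligands such as BMP4 and BMP5 are secreted proteins that bring type I and type II receptors together on the target cell. The type II receptor BMPR2, the endothelial type I receptor ALK1 (encoded by Acvrl1) and the co-receptor endoglin (Eng) pass the signal to the receptor SMADs, among them SMAD9, which enter the nucleus and switch on genes such as Id1 and Id3. SMAD6 inhibits the signal within the cell, and gremlin (Grem1) binds the ligands outside it. In lung endothelium this pathway helps to keep vessels quiescent, and mutations of BMPR2 are the best known cause of inherited pulmonary arterial hypertension.

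Values are FPKM, in which the fragments of a gene are divided by its length and by the size of the library. That size was 1.022 to 1.072 times the fragments on genes in IncPBF lungs and 0.958 to 1.032 times in sham lungs. On average, IncPBF values are therefore lower against sham on this scale than with an equal total of fragments per lung. Tests used limma on log2(FPKM + 0.1) over the 15388 genes with a mean of at least 0.5 FPKM, with Benjamini-Hochberg adjustment over all of them, and all 10 genes were among these. Grem1 passed this filter only through the IncPBF group. The lungs had 16103423 to 20318525 fragments on genes. Xist, which silences an X chromosome in female cells, reached 52.4 to 66.5 FPKM in IncPBF lungs 2 to 5 and at most 0.0770 FPKM in IncPBF lung 1 and all sham lungs. Ddx3y, which is Y-linked, was 18.6 FPKM or more in IncPBF lung 1 and the sham lungs and at most 0.00926 FPKM in the other lungs. In 4 of 5 IncPBF lungs the surgery and sex-linked expression therefore cannot be told apart, and IncPBF lung 1 (lungs are numbered as in the table) is named beside the results. The defining lung genes were present, with Sftpc at 9583 FPKM and Ager at 565 FPKM or more in every lung.

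In IncPBF lungs the receptors Bmpr2, Acvrl1 and Eng and the receptor SMAD gene Smad9 fell, whereas the ligand gene Bmp4, the antagonist gene Grem1 and the target genes Id1 and Id3 rose. Bmp5 and Smad6 did not pass the test. The number with an adjusted p under 0.05 in limma was thus 8 of 10, with 4 higher and 4 lower, where 32.3% of all genes tested were called, 16.1% higher and 16.2% lower. The 10 genes and the lists below were chosen with earlier results of these data known. Their counts beside the shares of all genes are therefore a description and no test. The median log2 fold change of the 10 genes was 0.074, against 0.014 over all genes tested. All 5 lungs of one group lay on one side of the other group in 5 of the 10 genes, against 23.2% of all genes tested. In 9 of the 10 genes IncPBF lung 1 lay outside the sham range, on the side of the other IncPBF lungs, as it did in 47.9% of all genes tested (51.8% on either side). When limma was given log2 Xist as a covariate, 0 of the 10 genes were called at an adjusted p under 0.05, and 3 (Bmpr2, Acvrl1 and Grem1) had an unadjusted p under 0.05, while the direction stayed the same in 9 of the 10. With that covariate 4.82% of all genes tested were called. The difference between the groups in that fit rests mainly on IncPBF lung 1, the IncPBF lung with low Xist. With an equal total of fragments per lung 8 of the 10 genes were called, Bmp5 in place of Eng, against 34.7% of all genes tested (23.1% higher and 11.6% lower). With the mean of the endothelial markers described with the receptors as a covariate, 6 of the 10 genes were called, against 15.7% of all genes tested. The calls lost there were those of Eng (-0.15 on the log2 scale, limma adjusted p = 0.254) and Smad9 (-0.28, limma adjusted p = 0.173).

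**Figure D1:**
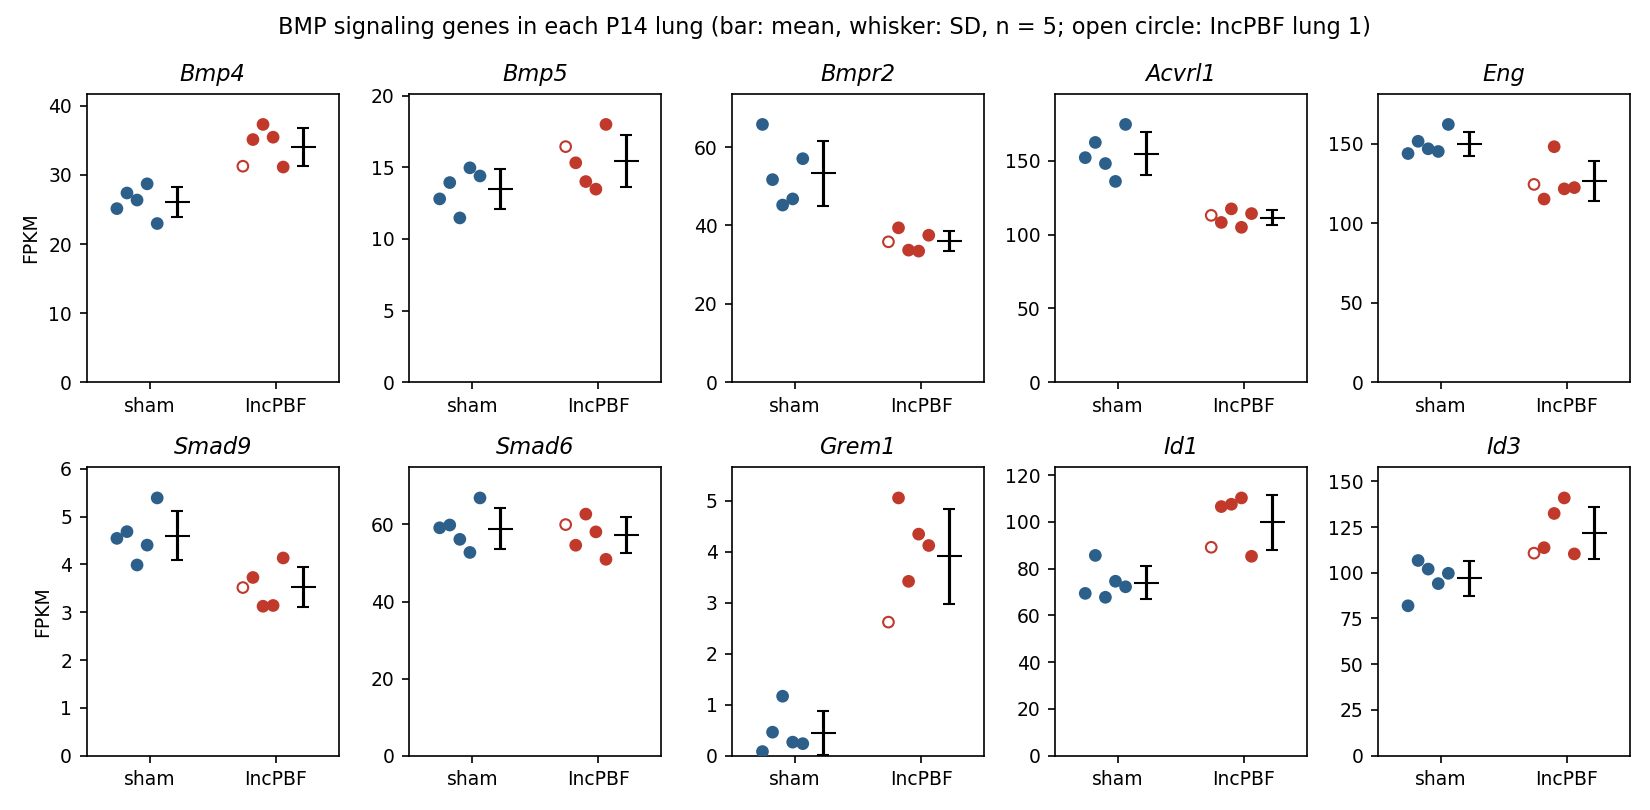
FPKM of the 10 genes in each lung, with sham lungs in blue and IncPBF lungs in red; the bar is the group mean and the whisker the SD (n = 5), and the open circle is IncPBF lung 1. Bmpr2 and Acvrl1 lie lower in every IncPBF lung than in any sham lung, and Bmp4, Grem1 and Id3 lie higher.

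The levels of the 10 genes per kilobase differed widely. In sham lungs Acvrl1 and Eng were the highest, with 155 and 150 FPKM on average, and their ranges overlapped. Id3 and Id1 followed with 96.9 and 74.0 FPKM and overlapping ranges, and then Smad6 and Bmpr2 with 59.0 and 53.3 FPKM and overlapping ranges. Bmp4, Bmp5, Smad9 and Grem1 came next, at 26.1, 13.5, 4.60 and 0.441 FPKM, each with a range apart from the gene before it. In IncPBF lungs this order was no longer resolved at the top, where Eng (126 FPKM), Id3 (122 FPKM), Acvrl1 (111.5 FPKM) and Id1 (99.8 FPKM) each overlapped the next. Bmpr2 and Bmp4, which were apart in the sham group, overlapped in the IncPBF group at 36.0 and 34.1 FPKM. Grem1, the lowest of the 10 genes in sham lungs, overlapped Smad9 in IncPBF lungs.

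Among the ligands, Bmp4 (ENSMUSG00000021835) sits at 46383520 to 46390669 of chromosome 14 (GRCm38, minus strand). It encodes a BMP that patterns the lung bud. Its FPKM were 31.3, 35.1, 37.3, 35.5 and 31.2 in IncPBF lungs 1 to 5 and 25.1, 27.4, 26.4, 28.7 and 23.0 in sham lungs 1 to 5. The lowest IncPBF lung thus lay above the highest sham lung. The means were 34.1 ± 2.74 and 26.1 ± 2.20 FPKM (SD, n = 5 per group), with a log2 fold change of 0.38 (SE 0.073, limma adjusted p = 0.00261, exact permutation p = 0.00794). Exact permutation of 5 against 5 lungs allows no smaller p. Bmp5 (ENSMUSG00000032179, chromosome 9, 75775364 to 75900310) encodes a related ligand. It was 13.5 to 18.0 FPKM under IncPBF (median 15.3) against 11.5 to 15.0 FPKM under sham (median 13.9). The groups overlapped, and the log2 fold change of 0.19 (95% interval -0.015 to 0.39) had an adjusted p of 0.142 from limma. The interval holds rises of up to the size of that of Bmp4. With an equal total of fragments per lung, Bmp5 passed the test with a log2 fold change of 0.27 (limma adjusted p = 0.0302).

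Of the 14 BMP and GDF ligand genes listed, 6 were tested, and 2 rose (Bmp2 and Bmp4), 1 fell (Bmp6) and 3 did not pass the test (Bmp3, Bmp5 and Gdf10), where 16.1% of all genes tested were called higher and 16.2% lower. Bmp2, a ligand close to Bmp4 in sequence, had 8.32, 9.55, 8.39, 8.44 and 7.37 FPKM in the IncPBF lungs and 4.14, 3.99, 2.91, 4.61 and 4.15 FPKM in the sham lungs. All IncPBF values exceeded all sham values, that of lung 1 included. Bmp2 rose by 1.08 on the log2 scale (SE 0.11, limma adjusted p = 7.06e-05), and by 1.09 with log2 Xist as a covariate (limma adjusted p = 0.0173), a fit that rests mainly on IncPBF lung 1. Bmp6, made by endothelial cells in the liver, was 35.3 ± 2.81 against 46.9 ± 5.71 FPKM (SD, n = 5 per group), with a log2 fold change of -0.40 (limma adjusted p = 0.00541). Its groups overlapped, since IncPBF lung 1 at 39.9 FPKM lay within the sham range, outside the 32.8 to 35.7 FPKM of the other IncPBF lungs. Gdf2, which encodes the ALK1 ligand BMP9, was at most 0.173 FPKM in any lung, and Bmp10, which encodes the other ALK1 ligand, was listed at 0 in all lungs. Neither was tested. Both proteins reach the lung with the blood, from liver and heart.

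The largest fall among the 10 genes was that of Bmpr2 (ENSMUSG00000067336), on the plus strand of chromosome 1 from 59763400 to 59879014. Bmpr2 was 35.8, 39.4, 33.7, 33.5 and 37.5 FPKM in IncPBF lungs 1 to 5. It was 65.8, 51.7, 45.2, 46.8 and 57.0 FPKM in sham lungs 1 to 5. The highest IncPBF lung lay below the lowest sham lung, and sham lung 1 was the highest of all. The means were 36.0 ± 2.53 and 53.3 ± 8.38 FPKM (SD, n = 5 per group), so that the IncPBF mean was 0.675 times the sham mean. Bmpr2 fell by 0.55 on the log2 scale (SE 0.098, 95% interval of the change -0.77 to -0.34, limma adjusted p = 0.0017). Without sham lung 1 it was -0.48 and still passed the test.

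Acvrl1 (ENSMUSG00000000530, chromosome 15, 101128522 to 101145336) fell with a smaller spread. It was 113, 108, 117, 105 and 114 FPKM in the IncPBF lungs and 152, 162, 148, 136 and 175 FPKM in the sham lungs. The groups did not overlap, and IncPBF lung 1 lay within the range of the other IncPBF lungs. The log2 fold change was -0.47 (SE 0.070, 95% interval -0.62 to -0.31), with the smallest adjusted p of the 4 genes that fell (0.000611 from limma). Eng (ENSMUSG00000026814, chromosome 2, 32646595 to 32682669) was 124, 115, 148, 122 and 122 FPKM in the IncPBF lungs and 144, 151, 147, 145 and 162 FPKM in the sham lungs. The groups overlapped only through IncPBF lung 3, which lay within the sham range. Eng fell by 0.25 on the log2 scale (SE 0.071, limma adjusted p = 0.020). The call for Eng was lost without IncPBF lung 2 (limma adjusted p = 0.0528) and with an equal total of fragments per lung (limma adjusted p = 0.0734).

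Of the 12 BMP receptor and co-receptor genes listed, 11 were tested, and 8 of them fell, 1 rose and 2 did not pass the test. Their median log2 fold change was -0.47, against 0.014 over all genes tested, of which 16.2% were called lower. The largest fall was that of Tgfbr3, which encodes betaglycan, a co-receptor of the TGF-β family that also binds BMPs. Tgfbr3 was 17.1, 15.2, 13.97, 13.2 and 17.2 FPKM in the IncPBF lungs and 39.3, 32.0, 29.2, 27.8 and 39.9 FPKM in the sham lungs. The groups were far apart, and the log2 fold change was -1.12 (SE 0.12, limma adjusted p = 6.83e-05). Acvr2a and Acvr2b, the activin type II receptors that BMPs also use, had log2 fold changes of -0.66 and -0.62, and the BMP co-receptor gene Rgma had -0.65. The adjusted p values of these 3 genes were 0.000234, 0.0173 and 0.000837 from limma. With log2 Xist as a covariate, a fit that rests mainly on IncPBF lung 1, Tgfbr3 (-0.93) and Acvr2a (-0.81) were the receptors that still passed the test, at limma adjusted p values of 0.0277 and 0.0130. The type I receptor Acvr1 rose by 0.17 on the log2 scale (limma adjusted p = 0.0154). Bmpr1a, the BMP type I receptor with the broadest expression, was 22.1 ± 1.99 against 21.1 ± 1.51 FPKM (SD, n = 5 per group) and did not pass the test (limma adjusted p = 0.524).

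**Figure D2:**
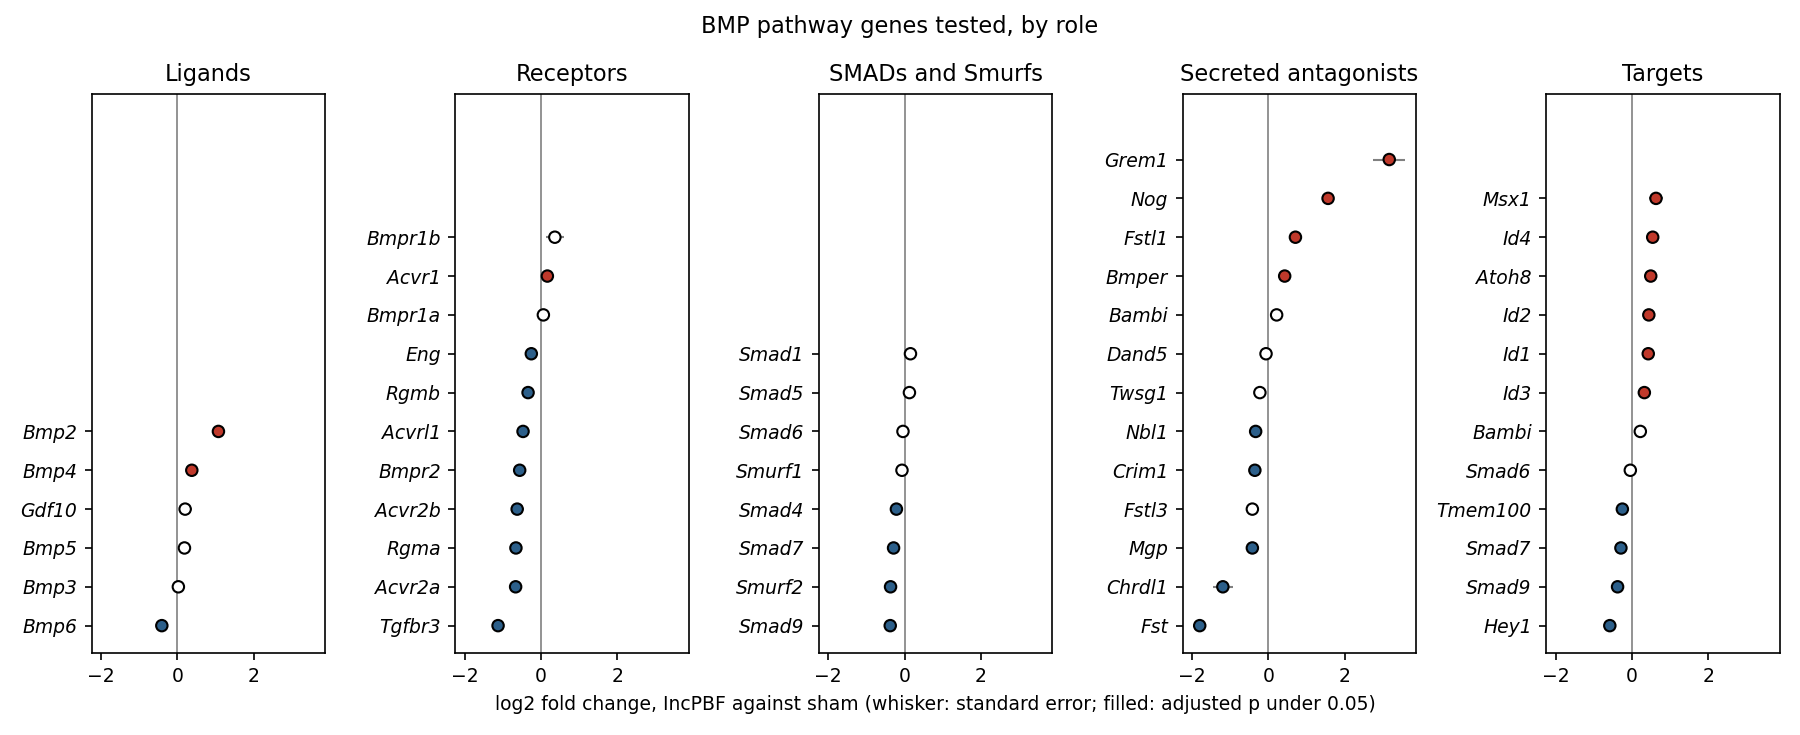
Log2 fold change in IncPBF against sham lungs of the BMP pathway genes tested, by role; whiskers are standard errors, filled circles have an adjusted p under 0.05 in limma, red for higher and blue for lower. Among the receptors 8 of 11 genes are called lower, and all 4 Id genes (Id1 to Id4) are called higher among the targets.

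Bmpr2, Acvrl1 and Eng are expressed mainly in endothelium, and endothelial and epithelial genes moved with them. In bulk lung, fewer endothelial cells and less RNA per cell cannot be told apart. Of 10 general endothelial markers, 5 fell (among them Cdh5, Pecam1 and Tie1), 1 rose (Egfl7) and 4 did not pass the test. Among all genes tested 16.2% were called lower and 16.1% higher. The markers were measured as follows. Their summed level was 1146 to 1248 FPKM under IncPBF against 1198 to 1513 FPKM under sham, none of the markers was at 0, and their mean log2 value was lower by 0.17 in the IncPBF group (6.22 against 6.39, exact permutation p = 0.0159). Alveolar epithelial markers were lower too, with 6 of 8 called lower and a mean log2 value lower by 0.49 (8.12 against 8.61, exact permutation p = 0.00794), and their part in the falls of the receptors was not tested. The 10 genes were also compared as the difference between their log2 value and the mean log2 value of the endothelial markers in the same lung.

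On this scale Bmpr2 was lower by 0.39 and Acvrl1 by 0.30 in the IncPBF group, each without overlap of the groups (exact permutation p = 0.00794). Both thus fell by more than the endothelial markers did on average. The single markers ranged from -0.44 (Cdh5) to 0.28 (Egfl7) as log2 fold changes, and Acvrl1, at -0.47, was close to Cdh5. For Eng the difference was -0.082 and did not pass the test (exact permutation p = 0.222). The differences were -0.21 for Smad9 (exact permutation p = 0.0873) and 0.13 for Smad6 (exact permutation p = 0.0635). The marker mean was lower by 0.17 in the IncPBF group, which adds as much to every difference on this scale. The genes that rose therefore had to lie higher here too, and their values are a description only. Bmp4 differed by 0.55, Id1 by 0.60, Id3 by 0.49 and Grem1 by 3.34, each with an exact permutation p of 0.00794. Bmp5 differed by 0.36 (exact permutation p = 0.0238). These are 10 values on 1 scale, and their p values are not adjusted for their number.

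**Figure D3:**
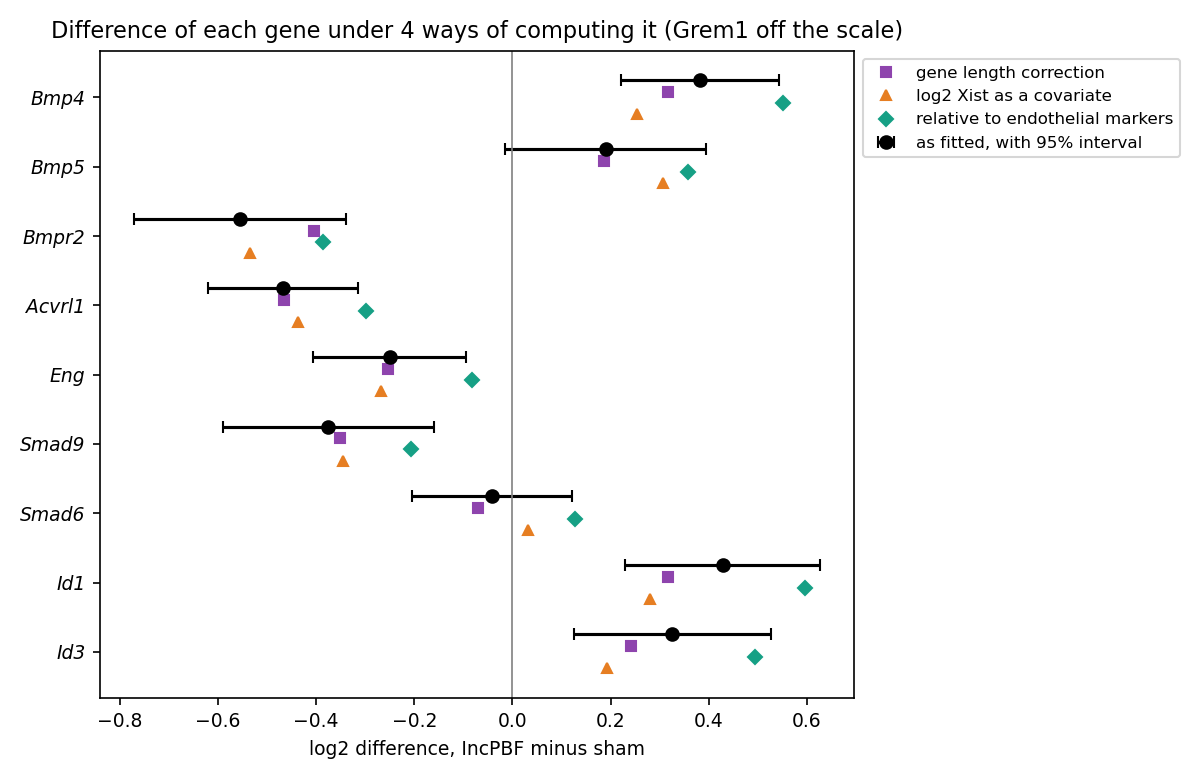
Log2 difference between IncPBF and sham lungs for 9 of the 10 genes, as fitted with limma (black, 95% interval), with a correction for gene length, relative to the endothelial markers, and with log2 Xist as a covariate. Bmpr2 and Acvrl1 lie below 0 and Bmp4, Id1 and Id3 above 0 in all 4, and Eng moves towards 0 relative to the endothelial markers.

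Among the SMAD genes, Smad9 (ENSMUSG00000027796, chromosome 3, 54755582 to 54801257) encodes the receptor SMAD also called SMAD8. It was 3.52, 3.73, 3.13, 3.14 and 4.14 FPKM in the IncPBF lungs and 4.55, 4.69, 3.99, 4.41 and 5.39 FPKM in the sham lungs. Only IncPBF lung 5 reached above the lowest sham lung. Smad9 fell by 0.38 on the log2 scale (SE 0.098, limma adjusted p = 0.0137). The other receptor SMAD genes of the BMP pathway had higher levels, and the values were 7.96 ± 0.612 against 7.12 ± 0.293 FPKM for Smad1 and 26.8 ± 1.98 against 24.5 ± 0.830 FPKM for Smad5 (SD, n = 5 per group). Neither passed the test (limma adjusted p = 0.0839 and 0.108). After a correction for gene length both did, at 0.19 and 0.19 on the log2 scale (limma adjusted p = 0.0305 and 0.0110).

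Smad6 (ENSMUSG00000036867, minus strand of chromosome 9, 63953076 to 64022059) encodes the inhibitory SMAD that acts most on BMP receptors. Its FPKM were 60.0, 54.6, 62.7, 58.1 and 51.0 in the IncPBF lungs and 59.1, 59.9, 56.1, 52.7 and 66.9 in the sham lungs. The groups overlapped throughout. The log2 fold change was -0.041 (95% interval -0.21 to 0.12, limma adjusted p = 0.707), and the interval holds falls of up to 0.21 on the log2 scale. Smad7, the other inhibitory SMAD, fell by 0.29 on the log2 scale (limma adjusted p = 0.0215). Of the 8 genes listed as SMADs and the ubiquitin ligases that degrade them, 4 fell (Smad9, Smad4, Smad7 and Smurf2), 0 rose in limma (2 genes, Smad1 and Smad5, had higher means with an unadjusted p under 0.05) and 4 did not pass the test, beside 16.2% lower and 16.1% higher among all genes tested. With an equal total of fragments per lung 3 of the 8 were lower and 2 higher, since Smad1 (0.23 on the log2 scale, limma adjusted p = 0.0128) and Smad5 (0.21, limma adjusted p = 0.00717) were then called and Smad4 was not (limma adjusted p = 0.0814). The log2 fold changes of Smurf2, a ubiquitin ligase, and Smad4, the partner of all receptor SMADs, were -0.37 and -0.21. Their adjusted p values were 0.0136 and 0.0270 from limma. With the mean of the endothelial markers as a covariate limma called 0 of the 8, with 3 at an unadjusted p under 0.05.

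The largest change among the 10 genes was that of the secreted antagonist Grem1 (ENSMUSG00000074934, minus strand of chromosome 2, 113746164 to 113758646). Grem1 was 2.62, 5.06, 3.42, 4.35 and 4.12 FPKM in IncPBF lungs 1 to 5, from 210 to 393 fragments. It was 0.0806, 0.461, 1.17, 0.265 and 0.235 FPKM in sham lungs 1 to 5, from 6 to 91 fragments. The groups did not overlap, with IncPBF lung 1 the lowest of its group and sham lung 3 the highest of its own. The means were 3.91 ± 0.929 and 0.441 ± 0.427 FPKM (SD, n = 5 per group), a ratio of 8.86. The sham mean lay under the filter of 0.5 FPKM, so Grem1 was tested only because of its IncPBF values. A gene let in this way shows a rise by its selection, so its rank is a description only. The log2 fold change was 3.17 (SE 0.42, 95% interval 2.24 to 4.10, limma adjusted p = 0.000318), the 6th largest rise of the 15388 genes tested. It was 1.79 with a pseudocount of 1 and 3.58 with a pseudocount of 0.01. With log2 Xist as a covariate it was 2.56 (limma adjusted p = 0.0739, unadjusted p = 0.00511), and the value for IncPBF lung 1 alone against the 5 sham lungs was 2.64 (limma adjusted p = 0.229, with this lone lung assumed to vary like the sham lungs).

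Gremlin is made by mesenchymal cells, and smooth muscle genes also moved between the groups. Of 7 smooth muscle markers, 4 rose (Acta2, Actg2, Myh11 and Des) and 3 did not pass the test. Their summed level was 318 to 615 FPKM under IncPBF against 116 to 251.6 FPKM under sham. Of 8 fibroblast markers, 3 rose (Col1a1, Col1a2 and Col14a1), 1 fell (Pdgfra) and 4 did not pass the test, with a summed level of 577.5 to 707 against 509 to 640 FPKM. Of 5 mesothelial markers, which mark the pleura, 4 were tested and all 4 fell, with a summed level of 46.7 to 75.9 against 82.2 to 158 FPKM. These counts stand beside 16.1% called higher and 16.2% called lower among all genes tested. No defining marker of these lists was at 0 in any lung. The part of these cell types in the rise of Grem1 was not tested.

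Other antagonists and modulators moved in both directions. Of the 17 antagonist and modulator genes listed, 13 were tested, and 4 rose (Grem1, Nog, Fstl1 and Bmper), 5 fell (Fst, Chrdl1, Mgp, Crim1 and Nbl1) and 4 did not pass the test, beside 16.1% higher and 16.2% lower among all genes tested. Nog, which encodes the BMP antagonist noggin, was 3.45, 3.68, 4.47, 4.68 and 2.70 FPKM in the IncPBF lungs and 1.05, 1.16, 1.47, 1.27 and 1.05 FPKM in the sham lungs. It rose without overlap by 1.57 on the log2 scale (SE 0.15, limma adjusted p = 4.56e-05). Fst encodes follistatin, which binds activins and, less tightly, BMPs. Fst was 0.733, 0.721, 0.649, 0.594 and 1.08 FPKM in the IncPBF lungs and 3.70, 2.81, 2.80, 2.18 and 2.78 FPKM in the sham lungs. It fell without overlap, with a log2 fold change of -1.79 (SE 0.17, limma adjusted p = 3.77e-05).

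Chrdl1, which encodes a chordin-like antagonist, had a log2 fold change of -1.19 (limma adjusted p = 0.00568), at low levels of 0.277 ± 0.0872 against 0.757 ± 0.190 FPKM (SD, n = 5 per group). Fstl1, a follistatin-like glycoprotein that binds BMP4, was 251 to 287.5 FPKM under IncPBF against 139 to 196 FPKM under sham, a rise of 0.71 on the log2 scale (limma adjusted p = 0.000174). With log2 Xist as a covariate, Nog (1.42), Fst (-1.78) and Fstl1 (0.64) were still called in limma. That fit rests mainly on IncPBF lung 1, for which alone the log2 fold changes were 1.46, -1.81 and 0.65.

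**Figure D4:**
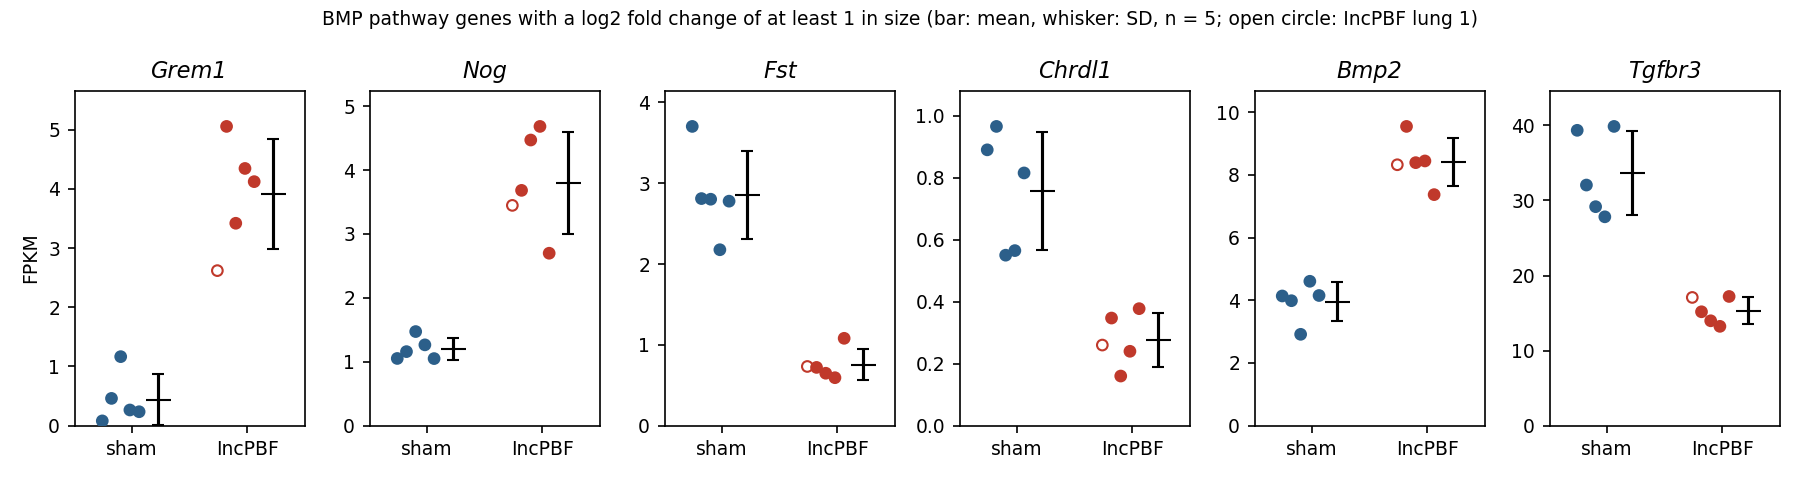
FPKM in each lung of the 6 BMP pathway genes with a log2 fold change of at least 1 in size and an adjusted p under 0.05 in limma; bars are means, whiskers SD (n = 5), and the open circle is IncPBF lung 1. These are among the 3.06% of all genes tested with such a change, and in all 6 the groups do not overlap, with Grem1, Nog and Bmp2 higher and Fst, Chrdl1 and Tgfbr3 lower in IncPBF lungs.

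The targets Id1 and Id3 encode helix-loop-helix proteins that lack a DNA-binding part and inhibit other factors by pairing with them. Id1 (ENSMUSG00000042745, chromosome 2, 152736251 to 152737410) was 89.2, 107, 108, 110 and 85.3 FPKM in the IncPBF lungs and 69.5, 85.7, 67.8, 74.6 and 72.3 FPKM in the sham lungs. The groups touched, since IncPBF lung 5 lay just below sham lung 2. Id1 rose by 0.43 on the log2 scale (SE 0.090, 95% interval 0.23 to 0.63, limma adjusted p = 0.00448). Id3 (ENSMUSG00000007872, chromosome 4, 136143497 to 136145755) was 111, 114, 132, 141 and 110 FPKM in the IncPBF lungs and 81.9, 107, 102, 94.1 and 99.7 FPKM in the sham lungs. The groups did not overlap, but sham lung 2 came close to the lowest IncPBF lungs. Id3 rose by 0.33 on the log2 scale (SE 0.092, 95% interval 0.12 to 0.53, limma adjusted p = 0.0194). With log2 Xist as a covariate their log2 fold changes were 0.28 and 0.19 (limma unadjusted p = 0.0941 and 0.246).

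Of the 13 BMP target genes listed, 12 were tested, and 6 rose, 4 fell and 2 did not pass the test, where 16.1% of all genes tested were called higher and 16.2% lower. The genes that rose were Id1, Id2, Id3, Id4, Atoh8 and Msx1. Id2 was 41.0 to 44.9 FPKM under IncPBF against 28.1 to 36.9 FPKM under sham, a log2 fold change of 0.44 (limma adjusted p = 0.000832). Id4 was 5.27 to 7.42 against 3.49 to 4.77 FPKM, a log2 fold change of 0.55 (limma adjusted p = 0.00368). The other members of the Id family thus moved in the direction of Id1 and Id3, without overlap of the groups. Atoh8, a transcription factor of endothelial cells, rose by 0.49 and the homeobox gene Msx1 by 0.63 on the log2 scale (limma adjusted p = 0.00277 and 0.0222). The genes that fell were Hey1, Tmem100, Smad7 and Smad9. Hey1, which is also a target of Notch, had the largest fall, with a log2 fold change of -0.58 (limma adjusted p = 0.0026).

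RefSeq promoters of GRCm38.p6, from 250 bases before to 50 after the start site, were at hand for 8 of the 10 genes, all but Id1 and Acvrl1. Both strands were searched for a GC-rich SMAD site, the palindrome GGCGCC, and for the SMAD box, GTCT, which reads AGAC on the other strand. The first was in the promoters of Bmpr2, Grem1 and Smad9, 3 of 8, and in 11.9% of all 32851 promoters of the same length. The SMAD box was in 7 of 8, all but Bmpr2, and in 88% of all promoters. The 150 bases before the start sites of Grem1, which rose and has both motifs in its promoter, of Smad9, which fell and has both, and of Bmp4, the ligand gene that rose, are printed 5′ to 3′ on the strand of the gene, and capitals mark either motif.
Grem1 (chr2:113758649-113758798, minus strand): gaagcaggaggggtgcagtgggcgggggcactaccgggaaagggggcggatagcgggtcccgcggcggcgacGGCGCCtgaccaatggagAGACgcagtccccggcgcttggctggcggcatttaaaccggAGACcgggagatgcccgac
Smad9 (chr3:54755432-54755581, plus strand): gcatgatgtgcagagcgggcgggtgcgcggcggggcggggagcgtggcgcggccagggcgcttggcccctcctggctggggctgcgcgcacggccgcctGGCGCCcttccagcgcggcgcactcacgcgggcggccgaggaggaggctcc
Bmp4 (chr14:46390670-46390819, minus strand): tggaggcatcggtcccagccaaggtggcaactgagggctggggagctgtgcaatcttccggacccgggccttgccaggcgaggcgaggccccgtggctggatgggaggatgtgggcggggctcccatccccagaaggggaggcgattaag
G and C made up 70.7% of the Grem1 stretch, 80.7% of that of Smad9 and 68% of that of Bmp4. GGCGCC began 78 bases before the start site in Grem1 and 51 bases before it in Smad9. The promoter of Bmp4 held 2 SMAD boxes, beginning 222 bases before and 35 bases after its start site, and that of Smad9 held 2, beginning 181 bases before and 27 bases after it, all outside the printed stretches. A match of so few letters is a description of the sequence and does not show binding.

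Among 15 genes known from inherited pulmonary arterial hypertension, 13 were tested, and 7 fell, 0 rose in limma (1 gene, Klf2, had a higher mean with an unadjusted p under 0.05) and 6 did not pass the test. Their median log2 fold change was -0.25, against 0.014 over all genes tested, of which 16.2% were called lower. Besides Bmpr2, Acvrl1, Eng and Smad9 these were Cav1, Aqp1 and Atp13a3. Cav1, which encodes the membrane protein caveolin-1, was 281 to 318 FPKM under IncPBF against 337 to 452 FPKM under sham, a log2 fold change of -0.49 (limma adjusted p = 0.0016). Aqp1, a water channel of endothelial cells, and Atp13a3, a polyamine transporter, had log2 fold changes of -0.45 and -0.42 (limma adjusted p = 0.0113 and 0.0252). Sox17, Tbx4, Kcnk3, Kdr, Klf2 and Eif2ak4 did not pass the test, with log2 fold changes between -0.17 (Kdr) and 0.44 (Klf2, limma adjusted p = 0.0612). The balance of 7 lower and 0 higher depended on the scaling. With an equal total of fragments per lung 5 were lower and 1 higher, as Klf2 was called (0.52 on the log2 scale, limma adjusted p = 0.0267) and Eng and Atp13a3 (limma adjusted p = 0.0535) were not. Klf2 was called higher with the endothelial covariate too (0.75 on the log2 scale, limma adjusted p = 0.0212), beside 4 lower.

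Fold changes in the whole table moved with gene length, which differs among these genes. Over the protein-coding genes tested, the median log2 fold change was 0.17 in the shortest of 10 length bins (27 to 1673 bases) and -0.13 in the longest (9700 to 41324 bases). Id1 (1160 bases), Id3 (1791 bases) and Bmp4 (2248 bases) are short genes that rose, and Bmpr2 (17983 bases) is among the longest and fell. The fold change of Id1 exceeded that of 80.0% of the genes in its bin, that of Id3 exceeded 77.9% and that of Bmp4 82.1%. Bmpr2 lay below 93.3% of the genes in its bin. After each lung was corrected for its trend with gene length, the log2 fold changes were 0.32 for Id1, 0.24 for Id3, 0.32 for Bmp4 and -0.40 for Bmpr2, and Acvrl1, at -0.46, and Grem1, at 3.17, hardly moved. All 8 genes called before were also called by limma after the correction, with the largest adjusted p for Id3 (0.0366), where 31.8% of all genes tested were called.

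**Figure D5:**
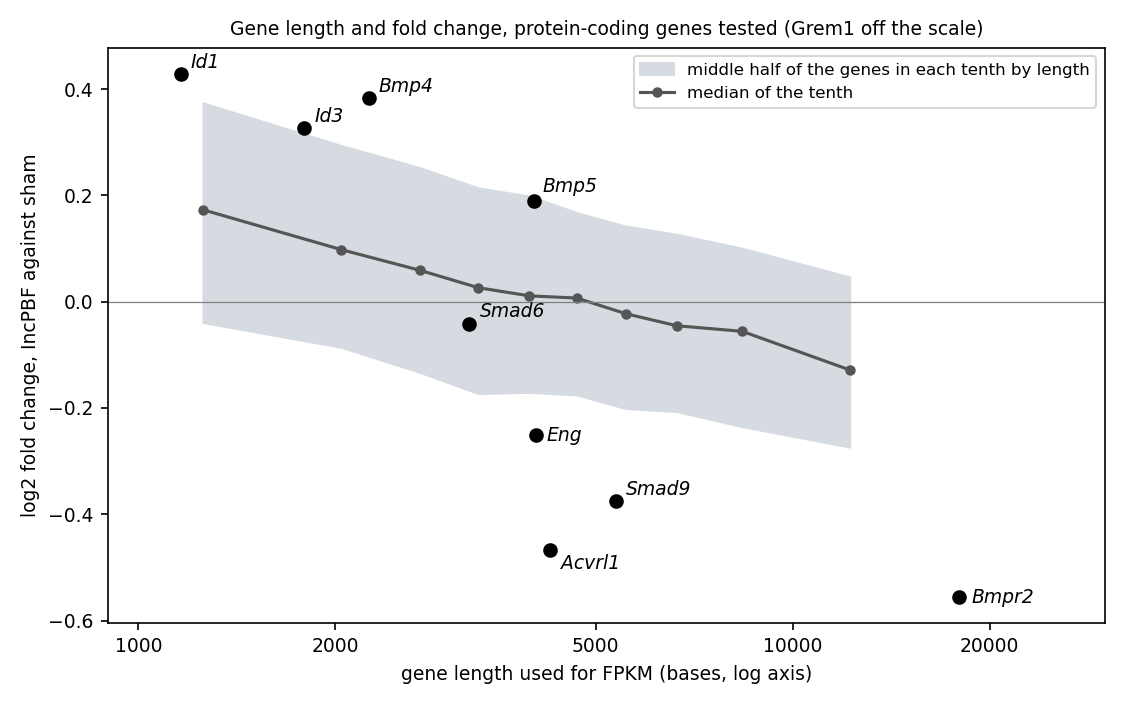
Gene length used for FPKM (log axis) and log2 fold change in IncPBF against sham lungs; the line joins the medians of 10 length bins of the protein-coding genes tested, the band is the interquartile range of each bin, and black points are 9 of the 10 genes. The medians fall from 0.17 to -0.13, with Id1, Id3 and Bmp4 at or above the upper edge of the band and Bmpr2, Acvrl1, Eng and Smad9 lower than its lower edge.

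For the genes with the largest rise and the largest fall, the genes most like them were sought among all genes tested, by Pearson's r of the deviations from the group means over the 10 lungs. For Grem1 these were Sntg2 (r = 0.978), Rars2 (r = 0.959) and Adal (r = 0.957). The log2 values of Grem1 ranged from -2.47 to 0.34 in sham lungs, with 6 to 91 fragments, and from 1.44 to 2.37 in IncPBF lungs. Its coefficients thus rest mainly on the sham lungs, where its counts were low. Sntg2 rose as well, by 1.35 on the log2 scale (limma adjusted p = 0.000351), from 1.76 to 4.50 FPKM on average. For Bmpr2 they were Dock8 (r = 0.991), Dmxl1 (r = 0.986) and Btbd3 (r = 0.985), of which Btbd3 had a log2 fold change of -0.47 (limma adjusted p = 0.00371). The lungs of each correlation share their library and depth with every other gene, and the highest of 15388 coefficients are high by their selection.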

How the data were processed

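The authors deposited FPKM of 54532 genes in 10 lungs with the gene length that enters them. The labels' processing notes name Bowtie 0.12.2 and several builds without roles; the counting software and the test are not given in the sources used here. Coordinates were identical to GENCODE M21 on GRCm38 for 98.3% of the shared genes. IncPBF columns are not named as in the titles, so they were mapped to their group only, the sham columns being named sham. FPKM times length were whole multiples of 1 fragment for 100% of values within 0.1, which gave the fragments per gene.

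limma 3.58.1 in R 4.3.3 (eBayes with trend, no covariates) was fitted to log2(FPKM + 0.1) of the genes averaging 0.5 FPKM or more, and called at an adjusted p under 0.05. The fold change on this scale understates low genes. Exact permutations over the lungs were two-sided. No pair of lungs agreed within sampling noise. Genes named were the 10 genes, up to 4 called genes of each list with the largest change, and a few partners by function. The members and lists were chosen with earlier results of these data known. A gene taken out of the antagonist list is not reported here. The correction for gene length (loess, span 0.5) was added after the data were seen, and the script was tested on simulated data. Alternatives covered pseudocounts of 1 and 0.01, filters, scalings, voom, Xist, the endothelial markers, and each lung left out. Leukocyte markers (8) gave 1 higher and 1 lower call, alveolar epithelial markers (8) 0 higher in limma and 6 lower, beside 16.1% higher and 16.2% lower among all genes tested. Figures used Python 3.11.15 and matplotlib 3.10.9.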

Additional observations from a re-analysis of the deposited data

Results flagged for a closer look

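Eng in IncPBF lung 3 was flagged because it stood apart from its group, at 148 FPKM against 115 to 124 FPKM in the other IncPBF lungs. The gap to the nearest lung was 0.72 of the range of the group, above the limit of 0.71 for 5 samples. It was the only flag in 20 groups of 5 values for the 10 genes, where chance flags about 1 group in 20. Without IncPBF lung 3 the log2 fold change of Eng was -0.31 (adjusted p = 0.00344 from limma).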

How the results depend on the processing

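The limit of these data is that surgery and sex-linked expression coincide in 4 of 5 IncPBF lungs. Fits with log2 Xist as a covariate therefore rest mainly on IncPBF lung 1, and 4.82% of all genes tested were called there. With log2 Xist as a covariate, limma called 0 of the 10 genes (3 at an unadjusted p under 0.05), 1 ligand, 2 receptors, 0 SMAD genes (0 unadjusted), 3 antagonists, 0 targets (3 unadjusted) and 0 hypertension genes (4 unadjusted). With IncPBF lung 1 alone against the sham lungs, assumed to vary like them, the counts were 0 of the 10 genes (3 unadjusted), 0 ligands (1 unadjusted), 1 receptor, 0 SMAD genes (0 unadjusted), 2 antagonists, 0 targets (3 unadjusted) and 0 hypertension genes (3 unadjusted), where 1% of all genes tested were called. With the endothelial markers as a covariate there were 0 SMAD genes (3 unadjusted) and 6 targets, where 15.7% of all genes tested were called. The sign of Smad6, which passed no test, turned with equal totals (0.038), voom (0.039), the Xist covariate (0.032), IncPBF lung 1 alone (0.029) and the endothelial covariate (0.092), and ranged from -0.080 to 0.0053 with single lungs left out. With single lungs left out 7 to 8 of the 10 genes were called, where 25.1% to 34% of all genes tested were called. In these fits 2 to 4 SMAD genes were called, with 2 without sham lung 1 and 2 without sham lung 5. Equal totals changed the calls of SMAD genes from 4 lower and 0 higher to 3 and 2, changed those of hypertension genes from 7 and 0 to 5 and 1, and moved the median log2 fold change of all genes from 0.014 to 0.092. With a replicate block 8 of the 10 genes were called, against 31.7% of all genes tested. The correlations of same-numbered lungs were -0.0675 to 0.0854, however, so the numbers do not pair the lungs. The correction for gene length was chosen after seeing the data. The causes were not tested.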
